A study of Homo sapiens with 6 samples.

Results

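The genes described here are 10 targets and regulators of the coactivator YAP and its TEAD partners: YAP1, LATS2, AJUBA, AMOTL2, PTPN14, CCN1, CCN2, ANKRD1, CRIM1 and NT5E. They were taken from a list of YAP/TEAD genes, and each was read by 1 probe set that carries a single gene symbol. They are 10 of the 18417 genes tested. The study lowered ETS2, an ETS-family transcription factor that acts downstream of RAS and ERK, in H441, an established human lung adenocarcinoma line. Cells received a SMARTpool siRNA against ETS2 or a scrambled control siRNA, both by lipid transfection with Lipofectamine RNAiMAX, and RNA was taken 48 h later. Each group has 3 arrays from separate transfections. All cells were of 1 line and ETS2 was targeted with 1 siRNA pool, and every comparison below is ETS2 siRNA against control siRNA. Values are levels on the log2 scale, summarised by the authors with RMA, and differences are ETS2 siRNA minus control siRNA.

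YAP is held in the cytoplasm when the LATS kinases of the Hippo pathway phosphorylate it. When it is not phosphorylated it enters the nucleus, where it binds TEAD factors and raises transcription of genes for matrix proteins, cytoskeletal regulators and several of its own inhibitors. In lung epithelium the pathway is known for its part in growth and repair. Phosphorylation and location of YAP are not read by an expression array.

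Of the 10 genes, 3 rose after ETS2 siRNA and 1 fell, at an adjusted p under 0.05 in a fit across all genes. PTPN14 rose to 128.6% of its control level, CRIM1 to 125.1% and NT5E to 122.0%, while CCN1, the secreted matrix protein formerly called CYR61, fell to 78.3%. The other 6 genes, YAP1, LATS2, AJUBA, AMOTL2, CCN2 and ANKRD1, had positive differences between 0.05 and 0.21 that did not pass the threshold. Across all genes 4.91% changed, 2.28% higher and 2.63% lower. The median difference of the 10 genes was 0.08, beside 0.0033 over all genes tested. The 10 were chosen with earlier results of these data known, so their count and median are no test of the pathway. Among 48 other measured genes of the factor, kinase, adaptor and target lists below, 3 rose and 4 fell, with a median difference of -0.01. The groups did not overlap for 5 of the 10 genes, 4 higher and 1 lower, while 23.1% of all genes had groups that did not overlap, 11.6% higher and 11.5% lower. All 10 genes lay above a background floor of 6.67, set on olfactory receptor genes. With 1 array left out the number of the 10 that changed lay between 2 and 5, with 2 called without ETS2 siRNA replicate 1 or replicate 3.

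**Figure D1:**
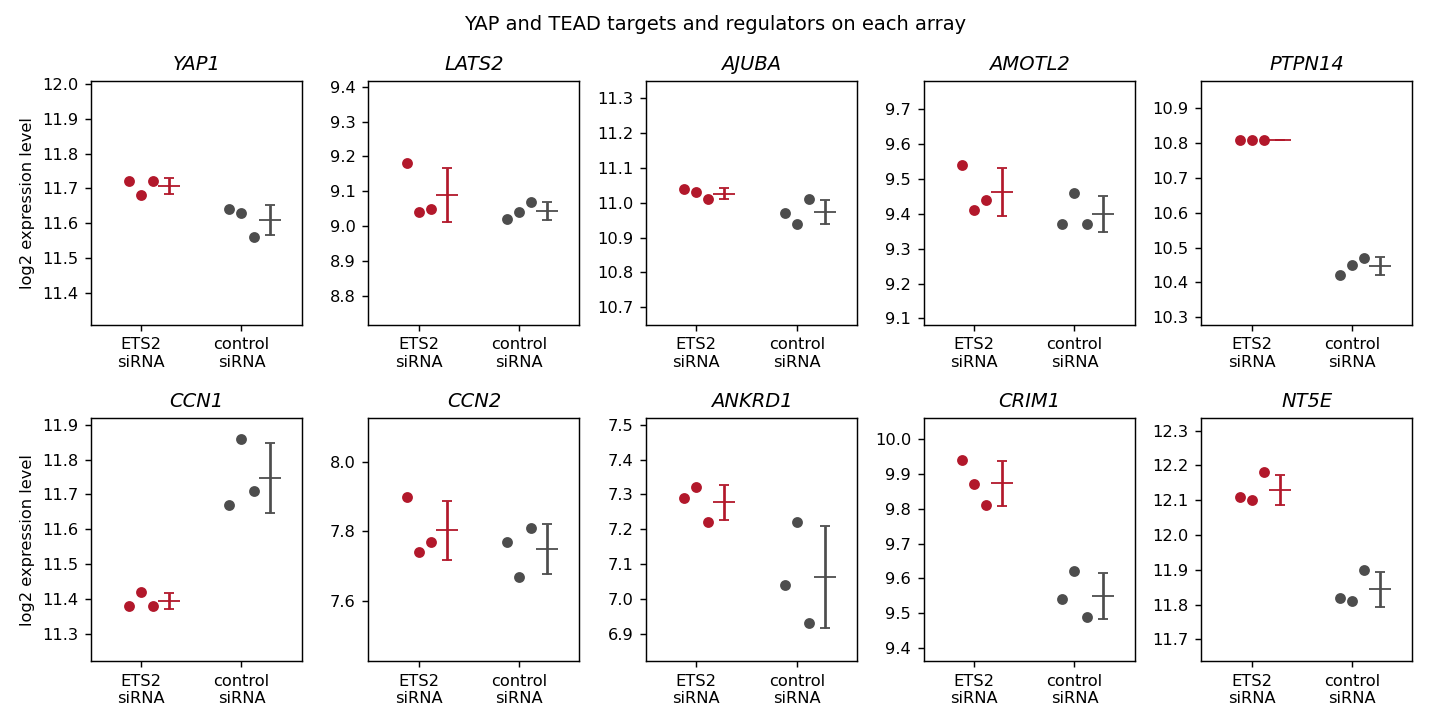
Log2 expression level of each of the 10 genes on each array, ETS2 siRNA left and control siRNA right in every panel. Points are single arrays, the bars beside them are mean and SD (n = 3), and every panel spans the same width in log2 units; PTPN14, CRIM1, NT5E and YAP1 show every ETS2 siRNA array above every control array, and CCN1 shows the opposite.

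The siRNA target was checked first. ETS2 read 8.87, 8.70 and 8.78 on the ETS2 siRNA arrays, against 9.79, 9.91 and 9.79 on the control arrays, and fell to 48.4% of its control level (difference -1.05, SE 0.0565, adjusted p = 0.000254). Epithelial markers matched the labelled cell type, with EPCAM, CDH1, KRT7, KRT8, KRT18 and KRT19 between 12.79 and 13.40 on every array and the lung factor NKX2-1 between 10.90 and 11.08. SFTPC, a defining gene of alveolar type II cells, had both group means below the floor. SFTPB (9.35 after ETS2 siRNA and 9.71 in control cells) and SLC34A2 (12.54 and 12.83) lay above it. SFTPA1 shares its probe sets with SFTPA2 and was therefore not in the fit per gene. Those probe sets read 11.95 to 12.84, with differences of -0.26 and -0.25 (limma over all probe sets, adjusted p = 0.0564 and 0.0489). Of the 10 lung epithelial markers measured, 2 fell, SFTPB by 0.36 and SLC34A2 by 0.29, beside 2.63% of all genes. The part of these 2 genes in the results below was not tested. Fibroblast, endothelial and leukocyte markers had 0 of 8, 0 of 6 and 0 of 7 members called by limma (0, 2 and 2 at an unadjusted p under 0.05). Over all genes 4.91% were called and 18.5% had an unadjusted p under 0.05. Above the floor in at least 1 group were 5 of the 8 fibroblast, 2 of the 6 endothelial and 3 of the 7 leukocyte markers measured. Among these were COL1A1 (9.05 after ETS2 siRNA and 8.95 in control cells), KDR (9.61 and 9.80) and CD68 (11.46 and 11.29), with LUM at 8.98 and 9.03, while DCN (4.34 and 4.36), PECAM1 (5.81 and 5.71) and PTPRC (4.72 and 4.74) lay below it in both groups. Those with the smallest p were COL1A1 (0.10, adjusted p = 0.270) and PDGFRB (-0.09) of fibroblasts, KDR (-0.18, adjusted p = 0.0850) and TEK (-0.15) of endothelium, and CD68 (0.17, adjusted p = 0.107) and ITGAM (-0.16) of leukocytes. In RNA from whole cultures, fewer cells expressing a gene and less RNA per cell cannot be told apart.

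YAP1 encodes the coactivator itself. It read 11.72, 11.68 and 11.72 after ETS2 siRNA, against 11.64, 11.63 and 11.56 in control cells. Every ETS2 siRNA array lay above every control array, but the difference was small, 0.10 (95% interval 0.0041 to 0.19), and did not pass the threshold (adjusted p = 0.246). With an intensity trend in the variance model its adjusted p was 0.0436. Of its paralog and partners, none of the 5 genes WWTR1, which encodes TAZ, and TEAD1 to TEAD4 passed, and their groups overlapped. WWTR1 differed by 0.0067 (95% interval -0.08 to 0.10), TEAD1 by -0.02, TEAD2 by -0.09, TEAD3 by -0.05 and TEAD4 by -0.03. The 95% intervals of all 5 genes exclude changes as large as that of PTPN14, with TEAD2 at -0.21 to 0.03.

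The VGLL proteins also bind TEADs and can compete with YAP for them. VGLL1 read 8.03, 7.90 and 7.90 after ETS2 siRNA, against 8.21, 8.23 and 8.22 in control cells, and it fell by 0.28 (SE 0.0465, adjusted p = 0.0159). The groups lay apart, and the call was lost without ETS2 siRNA replicates 2 or 3 or control replicates 1 or 3 (adjusted p up to 0.0811). VGLL4, a repressor of TEAD targets, had a difference of 0.17 (adjusted p = 0.0838) with groups that did not overlap. VGLL2 and VGLL3 lay below the floor in both groups, with differences of -0.0067 and 0.02. Of the 10 factors of this list, 0 rose and 1 fell, with a median difference of -0.01, while 2.28% of all genes rose and 2.63% fell.

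LATS2 is a Hippo kinase that phosphorylates YAP and is also a YAP target, so that it acts in negative feedback. It read 9.18, 9.04 and 9.05 after ETS2 siRNA, against 9.02, 9.04 and 9.07 in control cells. The groups overlapped and the difference of 0.05 (95% interval -0.06 to 0.16, adjusted p = 0.694) was within the spread between arrays. Its paralog LATS1 read 9.57, 9.53 and 9.61 after ETS2 siRNA, against 9.81, 9.87 and 9.93 in control cells. LATS1 fell to 81.2% of control (difference -0.30, SE 0.0455, adjusted p = 0.0114), a call lost without ETS2 siRNA replicate 2 (adjusted p = 0.0587). The difference between the changes of the LATS paralogs was not tested.

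Upstream of LATS, FRMD6 and MAP4K4 rose. FRMD6, a FERM-domain protein linked to Hippo signalling, read 8.88, 8.83 and 8.98 after ETS2 siRNA, against 8.35, 8.60 and 8.49 in control cells. It reached 133.5% of control (difference 0.42, SE 0.0689, adjusted p = 0.0149), the largest difference among the pathway genes listed here. MAP4K4, a kinase that can phosphorylate LATS, stood at 11.63, 11.69 and 11.70 after ETS2 siRNA, against 11.44, 11.49 and 11.48 in control cells, and rose by 0.20 (adjusted p = 0.0275). The FRMD6 call was lost without ETS2 siRNA replicates 1 or 3 or control replicate 3 (adjusted p up to 0.0754), and the MAP4K4 call without any single array other than control replicate 2 (up to 0.122) and with the replicate block (0.0504). The remaining genes of the 16, among them the MST kinases STK3 and STK4, SAV1, the MOB1 genes, NF2 and the WWC and TAOK genes, were not called. In all, 2 of 16 genes of the kinase module rose and 1 fell, with a median difference of -0.02. Over all genes 2.28% rose and 2.63% fell. The groups did not overlap for 11 of the 16, 5 higher and 6 lower, beside 23.1% of all genes, 11.6% higher and 11.5% lower.

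AJUBA and its relatives LIMD1 and WTIP are LIM-domain proteins that bind LATS kinases and restrain them. AJUBA read 11.04, 11.03 and 11.01 after ETS2 siRNA, against 10.97, 10.94 and 11.01 in control cells. The groups met at 11.01, and the difference of 0.05 (95% interval -0.03 to 0.14, adjusted p = 0.543) did not pass. LIMD1 stood at 9.22, 9.26 and 9.18 after ETS2 siRNA, against 8.92, 9.05 and 8.91 in control cells, and it rose by 0.26 (SE 0.0498, adjusted p = 0.0255). That call was lost without any single array other than control replicate 2 (adjusted p up to 0.107). WTIP differed by 0.05 (adjusted p = 0.699).

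AMOTL2, a member of the angiomotin family, binds YAP at junctions and on actin and is itself a YAP target. It read 9.54, 9.41 and 9.44 after ETS2 siRNA, against 9.37, 9.46 and 9.37 in control cells. The groups overlapped, with a difference of 0.06 (95% interval -0.05 to 0.18, adjusted p = 0.581). Its relatives AMOT and AMOTL1 lay below the floor in both groups.

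PTPN14, a non-receptor tyrosine phosphatase that binds YAP and limits its activity, and is also induced by YAP, rose most among the 10. All 3 ETS2 siRNA arrays read 10.81, against 10.42, 10.45 and 10.47 in control cells, so the groups lay 0.34 or more apart. The difference was 0.36 (SE 0.0364, 95% interval 0.28 to 0.45, adjusted p = 0.00202). PTPN14 was called with any single array left out (adjusted p up to 0.0194) and under every other alternative tried. Of the 9 adaptors measured, PTPN14 and LIMD1 rose and 0 fell, with a median difference of 0.05. Over all genes 2.28% rose and 2.63% fell.

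**Figure D2:**
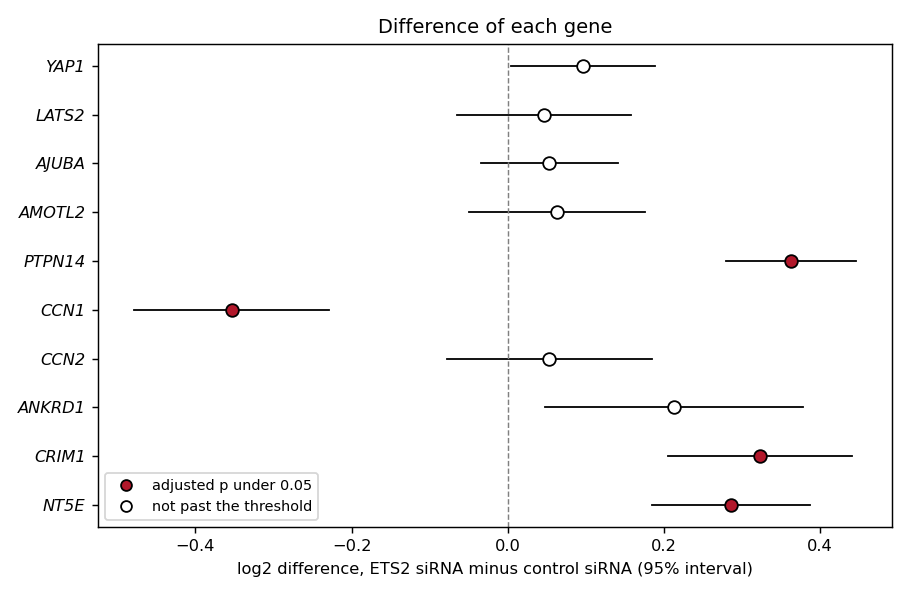
Log2 difference of each of the 10 genes, ETS2 siRNA minus control siRNA, with its 95% interval from limma; filled points passed an adjusted p of 0.05 over all genes. PTPN14, CRIM1 and NT5E lie to the right of 0 and CCN1 to the left, while the intervals of LATS2, AJUBA, AMOTL2 and CCN2 include 0 and those of YAP1 and ANKRD1 lie just above it.

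CCN1 and CCN2 encode secreted matricellular proteins that bind integrins, and with ANKRD1 they are the transcripts most often used as a readout of YAP and TEAD. CCN1 read 11.38, 11.42 and 11.38 after ETS2 siRNA, against 11.67, 11.86 and 11.71 in control cells. Every ETS2 siRNA array lay below every control array, with the control arrays spread more widely (SD 0.023 after ETS2 siRNA and 0.10 in control cells, n = 3 each). CCN1 fell by 0.35 (SE 0.0543, 95% interval -0.48 to -0.23, adjusted p = 0.0117). The call was lost without ETS2 siRNA replicate 1 (adjusted p = 0.0520) or replicate 3 (0.0638), and without control replicate 2, the highest array, the difference was -0.30 (adjusted p = 0.0141).

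CCN2, formerly CTGF, read 7.90, 7.74 and 7.77 after ETS2 siRNA, against 7.77, 7.67 and 7.81 in control cells. The groups overlapped, with a difference of 0.05 (95% interval -0.08 to 0.18, adjusted p = 0.708). ANKRD1, an ankyrin-repeat protein of muscle and stressed cells, read 7.29, 7.32 and 7.22 after ETS2 siRNA, against 7.04, 7.22 and 6.93 in control cells. The groups met at 7.22, and the difference of 0.21 (95% interval 0.05 to 0.38) did not pass (adjusted p = 0.151). Without control replicate 2, the highest control array, it was 0.29 (adjusted p = 0.0319), and with array weights it was 0.28 (adjusted p = 0.0328).

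The intervals of CCN1 and CCN2 did not meet. CCN2 and ANKRD1 were dim beside CCN1, with mean levels over all arrays of 7.78 and 7.17 against 11.57. Both lay above the floor but below the median level used as a filter. RMA compresses the differences of dim genes, and its effect on the comparisons with CCN1 was not tested. Taken within each array, the log2 ratio of CCN1 over CCN2 differed by -0.41 between ETS2 siRNA and control arrays, and that of CCN1 over ANKRD1 by -0.57. Both ratios had groups that did not overlap, and the pairs were chosen with the change of CCN1 known. Each gave p = 0.1 by a two-sided exact permutation test, the smallest that 3 arrays against 3 allow, and 0.1 after adjustment over the 2 ratios. The remaining CCN genes were not called, with CCN3 at -0.02, CCN4 at -0.03, CCN5 at -0.03 and CCN6, below the floor, at -0.08. Thus 1 of the 6 CCN genes changed, beside 4.91% of all genes.

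Promoter sequence was set beside these values, since TEAD proteins bind elements with the core GGAATG. RefSeq windows of GRCh38.p14 from 250 bases before to 50 after a gene's start were matched by symbol for 8 of the 10 genes, in 10 windows because AMOTL2 and AJUBA have 2 starts each. The tallies below do not cover CCN1 and CRIM1, which are 2 of the 4 genes that changed. The genes came from a list of YAP/TEAD genes, so the share of their windows with the core is no test of the pathway. The core, on either strand, was present in 7 of these 10 windows and in 14% of all 35116 windows. CCN2 held it 3 times, where 0.128% of all windows hold it 3 times or more, and ANKRD1 held it 2 times. The 250 bases before the start are shown for CCN2 and ANKRD1, the much used readouts that were not called, for PTPN14, which rose and holds the core 1 time on the other strand, and for NT5E, which rose and holds none. They lie at chr6:131951373-131951622, chr10:90921088-90921337, chr1:214551603-214551852 (all minus strand) and chr6:85449833-85450082 (plus strand). They run 5′ to 3′ along the gene, and capitals mark the core, read as CATTCC where it lies on the other strand.
CCN2: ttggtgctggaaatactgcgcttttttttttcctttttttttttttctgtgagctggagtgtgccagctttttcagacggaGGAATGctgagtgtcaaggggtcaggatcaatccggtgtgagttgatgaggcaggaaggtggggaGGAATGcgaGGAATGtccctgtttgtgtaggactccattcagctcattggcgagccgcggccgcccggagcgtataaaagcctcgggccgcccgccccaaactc
ANKRD1: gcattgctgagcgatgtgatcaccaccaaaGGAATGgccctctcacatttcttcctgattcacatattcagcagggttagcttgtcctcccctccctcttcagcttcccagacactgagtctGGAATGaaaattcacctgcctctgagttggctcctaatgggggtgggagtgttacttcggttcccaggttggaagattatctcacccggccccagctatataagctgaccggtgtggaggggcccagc
PTPN14: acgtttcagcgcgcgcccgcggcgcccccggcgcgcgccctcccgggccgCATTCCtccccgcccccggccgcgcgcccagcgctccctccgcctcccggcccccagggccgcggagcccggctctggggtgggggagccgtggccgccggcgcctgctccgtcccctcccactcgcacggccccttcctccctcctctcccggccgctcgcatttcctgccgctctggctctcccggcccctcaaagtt
NT5E: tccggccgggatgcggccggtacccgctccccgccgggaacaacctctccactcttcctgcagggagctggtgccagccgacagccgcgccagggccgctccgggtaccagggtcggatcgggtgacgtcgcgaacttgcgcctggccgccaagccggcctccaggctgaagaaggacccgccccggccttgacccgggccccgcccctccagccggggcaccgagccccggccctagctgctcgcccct

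In CCN2 the first bases of the 3 cores lay at -169, -104 and -95 from the start, in ANKRD1 at -220 and -128, and in PTPN14 at -200. Single cores were found in YAP1, in the second windows of AMOTL2 and AJUBA, and 10 bases past the start in LATS2. They are shown for the regulators YAP1, AMOTL2 and AJUBA, none of which was called, in 30 bases at chr11:102110273-102110302 (plus strand), chr3:134374499-134374528 and chr14:22976884-22976913 (both minus strand).
YAP1: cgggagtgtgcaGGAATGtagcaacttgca
AMOTL2: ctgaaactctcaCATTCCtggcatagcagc
AJUBA: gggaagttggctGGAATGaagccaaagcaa

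The same 10 windows were searched on both strands for an ETS element (CCGGAAGT), a loose AP-1-like pattern (TGANTCA) and the CArG box bound by SRF. The ETS element was in 0 of the 10 windows and in 4.14% of all windows. At so low a share, 0 in 10 windows says little. Only exact matches to CCGGAAGT were counted, so other forms of an ETS site were not read. The pattern TGANTCA, which takes any base in the middle and so is wider than an AP-1 element, was in 1 and in 7.71% of all windows. That match, in ANKRD1 at -195, reads TGATTCA, with T in the middle, and is not taken here as an AP-1 site. The CArG box was in 0 and in 1.29%. No match overlapped another. Such matches describe the letters of the window and not binding. CCN2, with 3 TEAD cores, had a log2 difference of 0.05 that was not called. PTPN14, with 1 core, rose by 0.36, and NT5E, with none, rose by 0.29. Any link between cores and differences was not tested.

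CRIM1 and NT5E encode cell surface proteins that are used in YAP target signatures. CRIM1, a transmembrane protein that binds BMPs, read 9.94, 9.87 and 9.81 after ETS2 siRNA, against 9.54, 9.62 and 9.49 in control cells. The groups lay apart, and CRIM1 rose by 0.32 (SE 0.0512, 95% interval 0.21 to 0.44, adjusted p = 0.0128). Its call was lost by a narrow margin without ETS2 siRNA replicates 1 or 2 or control replicates 1 or 3 (adjusted p up to 0.0587), and with all probes tested (0.0516), while its difference stayed between 0.29 and 0.36.

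NT5E encodes CD73, the ectoenzyme that makes adenosine from AMP outside the cell. It read 12.11, 12.10 and 12.18 after ETS2 siRNA, against 11.82, 11.81 and 11.90 in control cells. The lowest ETS2 siRNA array lay 0.20 above the highest control array, and NT5E rose by 0.29 (SE 0.0439, 95% interval 0.19 to 0.39, adjusted p = 0.0116), a call lost without ETS2 siRNA replicate 3 (adjusted p = 0.0622). Of the 9 genes measured of the extracellular adenosine pathway, NT5E rose and 0 fell, with a median difference of -0.01. Over all genes 2.28% rose and 2.63% fell. ADA, which removes adenosine, had a difference of 0.21 (adjusted p = 0.0939), the nucleoside transporter SLC29A2 one of -0.14 (adjusted p = 0.144), and ENTPD1, which makes the AMP that CD73 uses, lay below the floor.

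**Figure D3:**
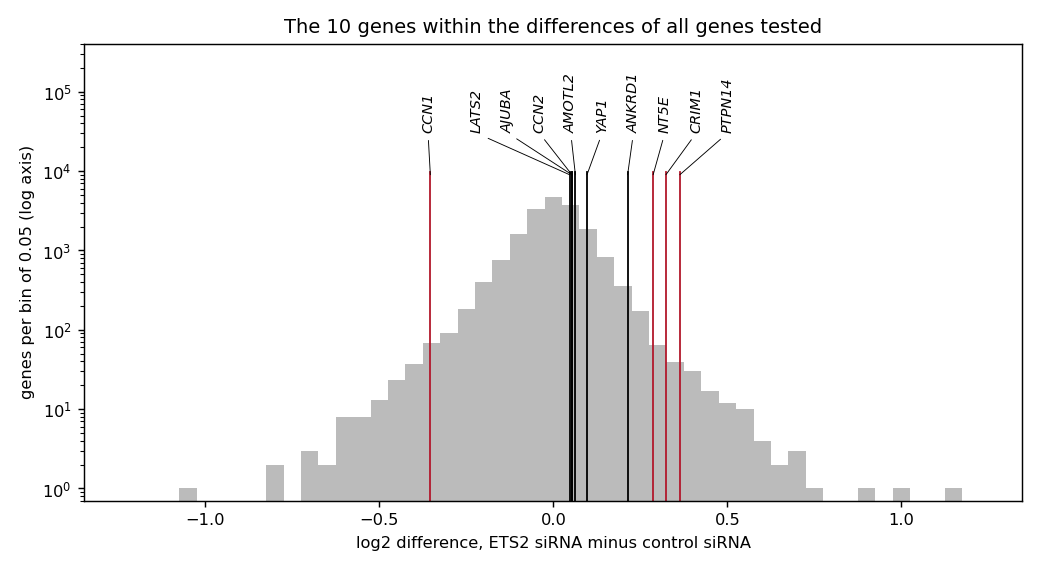
Number of genes by log2 difference, ETS2 siRNA minus control siRNA, in bins of 0.05 over all 18417 genes, with a log vertical axis. Vertical lines mark the 10 genes, red for an adjusted p under 0.05; CCN1 at -0.35 and PTPN14 at 0.36 lie in the sparsely filled flanks, and LATS2, AJUBA, CCN2 and AMOTL2 lie within the central peak.

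Other YAP and TEAD targets were read from a list of 20, of which 18 were measured. Of these, 0 rose and 2 fell, with a median difference of -0.02, while 2.28% of all genes rose and 2.63% fell. RBMS3, an RNA-binding protein, read 8.94, 8.94 and 8.87 after ETS2 siRNA, against 9.25, 9.35 and 9.19 in control cells, and it fell to 78.6% of control (difference -0.35, SE 0.0506, adjusted p = 0.00988). EDN1, the vasoactive peptide endothelin 1, stood at 9.68, 9.63 and 9.66 after ETS2 siRNA, against 9.85, 9.93 and 9.90 in control cells, and it fell by 0.24 (SE 0.0399, adjusted p = 0.0160). The RBMS3 call was lost without ETS2 siRNA replicate 3 (adjusted p = 0.0583), and the EDN1 call without any ETS2 siRNA array or without control replicate 3 (up to 0.0784).

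In the same list the receptor kinase AXL and tissue factor, encoded by F3, came close to the threshold from opposite sides of 0. AXL read 9.19, 8.91 and 8.99 after ETS2 siRNA, against 8.75, 8.76 and 8.66 in control cells (difference 0.31, adjusted p = 0.0514). F3 read 9.74, 9.71 and 9.86 after ETS2 siRNA, against 9.94 to 10.01 on the 3 control arrays (difference -0.21, adjusted p = 0.0515). Neither pair of groups overlapped. The membrane repair gene MYOF had a mean of 12.77 in both groups.

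CCN1, CCN2 and ANKRD1 are also induced by SRF and by immediate early signalling, so lists of both were read. Of 13 SRF and MRTF targets, 1 rose, the smooth muscle actin gene ACTA2 (difference 0.23, adjusted p = 0.0337), and 0 fell. Their median difference was 0.04, and over all genes 2.28% rose and 2.63% fell. ACTA2 read 7.81, 7.72 and 7.74 after ETS2 siRNA, against 7.53, 7.59 and 7.46 in control cells. It was not called when arrays were scaled on ribosomal protein genes, with the replicate block, with all probes tested, or without any single array other than control replicate 2 (adjusted p up to 0.116). FHL2, a LIM-domain cofactor, differed by 0.14 (adjusted p = 0.0854), and SRF itself by -0.04 (adjusted p = 0.759).

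Of 14 immediate early genes, 1 rose and 1 fell, with a median difference of -0.02, while 2.28% of all genes rose and 2.63% fell. DUSP1, a phosphatase of MAP kinases, read 9.79, 9.77 and 9.79 after ETS2 siRNA, against 10.05, 10.12 and 10.03 in control cells, and it fell by 0.28 (SE 0.0401, adjusted p = 0.00864). FOSL1, an AP-1 subunit, averaged 12.02 ± 0.015 after ETS2 siRNA and 11.84 ± 0.023 in control cells (SD, n = 3 each), and it rose by 0.18 (SE 0.0367, adjusted p = 0.0318). The DUSP1 call was lost without ETS2 siRNA replicate 3 (adjusted p = 0.0510), and the FOSL1 call without any 1 of the 6 arrays (up to 0.130) and with the replicate block (0.0720).

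The genes whose array pattern was nearest to that of CCN1, by the root mean square difference of log2 values centred on each gene's mean over the 6 arrays, were TCP11L2 at 0.0205, SFXN3 at 0.0243 and ALDH1A3 at 0.0291. All 3 fell, by 0.39, 0.34 and 0.37. TCP11L2 shared the high reading of CCN1 on control replicate 2, with 8.41, 8.45 and 8.38 after ETS2 siRNA, against 8.71, 8.92 and 8.77 in control cells. Nearest to PTPN14 were IPPK at 0.0206, PYGB, the brain form of glycogen phosphorylase, at 0.0234 and MDFIC at 0.0243. They rose by 0.34, 0.32 and 0.35. Only genes with a group mean above the floor were compared, and the 6 arrays are the same ones used for the fit. The direction and size of these differences therefore follow from how the genes were picked.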

How the data were processed

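The 6 arrays were single-channel Affymetrix arrays of total RNA. The authors deposited log2 expression levels, 1 column per array, made with RMA per the submitters' processing notes. RMA settings, version and build were not stated (not given in the sources used here). RMA brings arrays to a common distribution and compresses the differences of dim genes. The precision is limited by the number of arrays. Array medians over all genes lay between 8.07 and 8.10, and no arrays were identical.

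Of 33297 probe sets, 19460 carried 1 gene symbol in the platform annotation; the brightest per gene left 18417 genes. The floor of 6.67 is the 95th percentile of 341 olfactory receptor genes. Differences came from 1 linear model per gene (limma 3.58.1, R 4.3.3, all 6 arrays; lmFit and eBayes, two-sided, Benjamini-Hochberg over all genes, threshold 0.05). On data simulated for this comparison over 18417 genes, 34 of 67 genes changed by 0.25 and 60 of 67 changed by 0.5 were called. Of the 169 calls made there, 9 were false. The changed genes all lay above the floor and were fewer than the 904 called in the data, so these shares may differ here. The p-values measure the spread between transfections of 1 line.

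The 10 genes and the 12 lists (126 of 135 genes measured) were chosen with earlier results of these data known. Named are ETS2, the 10 genes, all TEAD factors and CCN genes, called list members or the 2 with the smallest p, and the 3 nearest patterns of CCN1 and PTPN14. AXL, F3, MYOF, SLC29A2, ENTPD1, WTIP, AMOT, AMOTL1, SRF, DCN, LUM, PECAM1, PTPRC, SFTPA1 and SFTPA2 were chosen after their values were seen. Promoter sequences are from RefSeq on GRCh38.p14. Alternatives were a replicate block, 3 rescalings, 2 filters on dim genes, the mean over probes, all probes tested, 2 variance models, array weights and each array left out.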

Additional observations from a re-analysis of the deposited data

How the results depend on the processing

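The number of the 10 genes that changed was 4 with the replicate block, under all 3 rescalings and both filters on dim genes, and 3 to 5 under the other alternatives on all 6 arrays; with 1 array left out it lay between 2 and 5. All 10 differences kept their sign under every alternative run, where the filter at the median level held 8 of the 10, without CCN2 and ANKRD1. Same-numbered arrays are not tied by the labels beyond their number. Their deviations from the group means correlated at 0.18, 0.18 and 0.04, with 1 of the 3 pairs under 0.1. Differently numbered pairs lay between -0.20 and 0.07, so pairing is not shown to be absent. The block is given as an alternative and is not in the main fit. It gave 604 changed genes against 904, 4 of the 10 genes, 2 genes of the kinase module, 0 SRF targets and 1 immediate early gene. The calls it ended were those of MAP4K4 (adjusted p = 0.0504), ACTA2 (0.0656) and FOSL1 (0.0720), and it changed no other call among the 10 genes and the called list genes. ETS2 siRNA replicate 3 correlated better with control replicate 2 than with its own number. ETS2 lay between -1.09 and -1.005 with 1 array left out.

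The count over all genes was 904 of 18417 in the main fit. It was 1397 of 13043 with genes above the floor and 1963 of 9208 with genes above the median level. With all 18417 genes it was 1963 with an intensity trend, 1480 with array weights, and between 213 and 735 with 1 array left out. With all probes tested it was 399 of 33297 probe sets. The list counts that follow stand beside these counts, and no list was tested against them. Calls in the whole list of factors (YAP1, WWTR1, the TEAD and the VGLL genes) numbered 2 of 8 above the floor and 3 of 10 with the trend. They numbered 2 with weights, 0 with all probes and 0 to 1 with 1 array left out. The kinase module numbered 8 of 16 above the median level, 5 of 16 with the trend, 1 with all probes and 1 to 4 with 1 array left out. The adaptors numbered 1 with all probes and 1 to 2 with 1 array left out. Other YAP targets numbered 5 of 17 above the floor, 6 of 14 above the median level, 6 of 18 with the trend and 5 of 18 with weights. They numbered 1 with all probes and 0 to 2 with 1 array left out. SRF targets numbered 4 of 13 above the floor, 3 of 9 above the median level, 4 of 13 with the trend and 3 of 13 with weights. They numbered 0 with all probes, 0 when scaled on ribosomal protein genes and 0 to 1 with 1 array left out. Immediate early genes numbered 4 of 11 above the median level, 4 of 14 with the trend and 4 of 14 with weights. They numbered 1 with all probes and 0 to 1 with 1 array left out. CCN genes numbered 0 to 1 and adenosine genes 0 to 1 with 1 array left out, and adenosine genes 2 of 6 above the median level and 2 of 9 with the trend. Lung markers numbered 4 of 10 with the trend and 1 to 2 with 1 array left out. Endothelial markers numbered 1 of 2 above the floor, 1 of 1 above the median level and 1 of 6 with the trend. Leukocyte markers numbered 1 of 1 above the median level, 1 of 7 with the trend and 1 of 7 with weights. The cause of these moves was not tested beyond the number of genes or arrays. Of 12 called list genes outside the 10, SFTPB alone was called with any array left out. With all probes tested, CRIM1, VGLL1, MAP4K4, FRMD6, LIMD1, EDN1, ACTA2 and FOSL1 were not called (adjusted p up to 0.0975).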
